A study of Mus musculus with 278 samples.

Results

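Immediate early genes were followed through single cells of mouse mammary epithelium. The 10 genes were Fos, Fosb, Jun, Junb, Jund, Egr1, Ier2, Atf3, Zfp36 and Dusp1, chosen by name as textbook members of this class, and all 10 were found among the 25135 genes kept from 27179 gene IDs. They were measured in 222 of 278 cells, those with 50000 or more reads. Cells of FVB/NJ mice had been sorted, captured one by one on a Fluidigm C1 chip, a device that makes cDNA from each cell in its own chamber, and sequenced. The labels gave 3 groups: basal cells of adult glands (85 of 112 cells used), luminal cells of adult glands (41 of 43) and total epithelium of glands in pregnancy (96 of 123). Per the study's methods the adult sorts were gated on CD24 and CD29 after removal of blood and endothelial cells, the pregnant glands were taken at mid-pregnancy, and each stage drew on more than 1 animal, but the animal of a cell is not named. No growth or treatment protocol applied. Since the pregnancy sort took both lineages and the adult sorts 1 each, stage and sort cannot be told apart.

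Immediate early genes are switched on within minutes of a signal, without new protein synthesis, mostly through mitogen-activated protein kinases that act on the transcription factors SRF, its ETS partners and CREB. Fos and Jun family proteins pair through leucine zippers into the AP-1 factor, Egr1 and Atf3 are further transcription factors, and Dusp1 and Zfp36 encode brakes on the response, a phosphatase of the kinases and a protein that hastens decay of AU-rich mRNAs. Growth factors and hormones induce these genes in the mammary gland, and so do enzymatic digestion and sorting of tissue, so their mRNA in a sorted cell can come from either.

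Fos, Fosb, Zfp36 and Dusp1 are shown by the 250 bases before the start in RefSeq's promoter table, since Fos was the highest of the 10 per length, Fosb was lower in pregnancy than in both adult sorts on the CPM scale, Zfp36 held the SRF motif and Dusp1 differed most between the adult sorts. The sequences come from RefSeq on GRCm38.p6 and run 5′ to 3′ on the gene's strand, with capitals marking motif matches on either strand. Fos lies at chr12:85473640-85473889 (plus strand), Fosb at chr7:19310046-19310295, Zfp36 at chr7:28379229-28379478 and Dusp1 at chr17:26508473-26508722 (all minus strand). The start used for Fosb lies within the annotated gene, so that 73 of its 250 bases are inside the gene, against 0 for the others shown.
Fos: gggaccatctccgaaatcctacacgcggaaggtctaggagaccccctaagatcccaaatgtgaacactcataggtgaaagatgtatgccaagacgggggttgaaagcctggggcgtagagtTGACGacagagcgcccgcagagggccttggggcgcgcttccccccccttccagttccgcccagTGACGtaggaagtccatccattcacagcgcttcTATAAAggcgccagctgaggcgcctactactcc
Fosb: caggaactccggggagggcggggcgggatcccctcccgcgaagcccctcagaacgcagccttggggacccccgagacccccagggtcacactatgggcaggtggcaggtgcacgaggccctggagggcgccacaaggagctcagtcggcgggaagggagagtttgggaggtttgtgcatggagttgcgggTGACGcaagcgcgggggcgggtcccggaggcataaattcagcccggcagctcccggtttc
Zfp36: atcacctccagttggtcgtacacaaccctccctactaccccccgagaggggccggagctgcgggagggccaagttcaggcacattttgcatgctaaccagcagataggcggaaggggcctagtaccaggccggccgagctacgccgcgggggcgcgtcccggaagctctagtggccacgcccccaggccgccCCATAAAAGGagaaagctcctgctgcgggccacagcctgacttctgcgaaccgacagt
Dusp1: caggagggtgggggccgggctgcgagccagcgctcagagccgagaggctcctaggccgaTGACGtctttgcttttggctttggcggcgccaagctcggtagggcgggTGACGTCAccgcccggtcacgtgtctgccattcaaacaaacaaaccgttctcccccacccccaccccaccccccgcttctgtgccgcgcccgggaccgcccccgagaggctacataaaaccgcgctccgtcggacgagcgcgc

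Promoters of 8 of the 10 genes were searched, without those of Egr1 and Ier2. The short CREB motif TGACG was found in 5 of the 8 (Fos, Fosb, Junb, Atf3 and Dusp1), and 17.8% of all 32851 promoters held it. The full palindrome TGACGTCA, which contains the short form on both strands, was found in Dusp1 alone, from 143 to 136 bases before the start, and in 1.55% of all promoters. The CArG box, the motif of SRF, was found in Zfp36 alone, from 58 to 49 bases before the start, and in 1.47% of all. Fos held TATAAA from 33 to 28 bases before the start (12.4% of all), and Jun and Junb held CCAAT (33.8%). The AP-1 motif TGANTCA was found in 0 of the 8 and in 6.75% of all. A match describes the letters in this window only.

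The labels name no animal behind a cell, so cells were not taken as replicates: each group was 1 sample, and its differences were neither tested nor checked in a replicate. Exact intervals at 95% are given for shares (Clopper-Pearson) and for sums of counts (Poisson, or binomial for a ratio). Reads are PCR copies without molecular identifiers, and the intervals cover counting error only. Reads in kept genes per cell lay between 53966 and 1290736, with medians of 378479 in adult basal, 637857 in adult luminal and 215202 in pregnancy cells. Of the defining basal markers Krt5, Krt14, Acta2, Myh11 and Trp63 the median adult basal cell detected 4 and the median adult luminal cell 0, and of the luminal markers Krt8, Krt18, Krt19, Epcam and Elf3 they detected 2 and 4. The median pregnancy cell detected 4 of each. Pregnancy cells were classed by the study's lists of lineage genes, which hold no immediate early gene, as basal (48 cells), luminal (21), mixed (19) or neither (8). Lists of endothelial, immune, fibroblast, pericyte and erythroid markers were also counted, and 3 or more markers of 1 such list were found in 1 adult basal, 6 adult luminal and 24 pregnancy cells. Adult luminal cells 15 and 17 passed 50000 reads but had fewer genes (1474 and 1374) than the study's minimum.

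Nearly every cell carried most of these genes at once. With every cell thinned to 50000 reads, the median adult basal cell detected 8 of the 10 (interval 8 to 8, range 1 to 10), the median adult luminal cell 9 (8 to 9, range 4 to 10) and the median pregnancy cell 9 (8 to 9, range 5 to 10). Unthinned medians were 9, 9 and 10. At 50000 reads the median cell detected 2259 genes of any kind in adult basal, 3430 in adult luminal and 3242.5 in pregnancy cells. The counts of the 10 genes were not adjusted for this. At least 5 of the 10 were detected in 94.1% of adult basal cells (80 of 85, 86.8 to 98.1). Among adult luminal cells the share was 97.6% (40 of 41, 87.1 to 99.9), and among pregnancy cells it was 100% (96 of 96, 96.2 to 100). The complete set was rarer, with all 10 found in 15 adult basal (17.6%, interval 10.2 to 27.4), 4 adult luminal (9.76%, interval 2.72 to 23.1) and 27 pregnancy cells (28.1%, interval 19.4 to 38.2). With 5 or more reads asked of each gene, the share of cells with at least 5 fell to 77.6%, 80.5% and 86.5%.

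Detection graded from genes found in nearly every cell to patchy ones, and the order of the genes differed between groups. Fos, the AP-1 partner most used as a mark of activation, was found in 95.3% of adult basal cells (81 cells, 88.4 to 98.7). It was found in every adult luminal cell (41 cells, 91.4 to 100) and in 96.9% of the pregnancy ones (93 cells, 91.1 to 99.4). Egr1 was found in 97.6%, 87.8% and 96.9% of these groups and Fosb in 91.8%, 92.7% and 95.8%. Atf3, a stress-induced repressor and activator, was found in all adult luminal cells but in 85.9% (76.6 to 92.5) of adult basal cells. Ier2, an early response gene that encodes a small nuclear protein, was the least often detected in adult basal cells at 47.1% (36.1 to 58.2), followed by Jund at 61.2% (50.0 to 71.6). Dusp1 was the least often detected in adult luminal cells, in 17 of 41 (41.5%, 26.3 to 57.9), against 64.7% (53.6 to 74.8) in adult basal and 77.1% (67.4 to 85.0) in pregnancy cells. Zfp36, the mRNA decay factor, was found in 71.8% (61.0 to 81.0) of adult basal and 94.8% (88.3 to 98.3) of pregnancy cells. These intervals cover the counting of cells and do not test a difference between groups. Detection was also not adjusted for the number of all genes detected, which was lowest in adult basal cells. Without thinning, Dusp1 was found in 70.6%, 48.8% and 82.3% of adult basal, adult luminal and pregnancy cells.

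**Figure D1:**
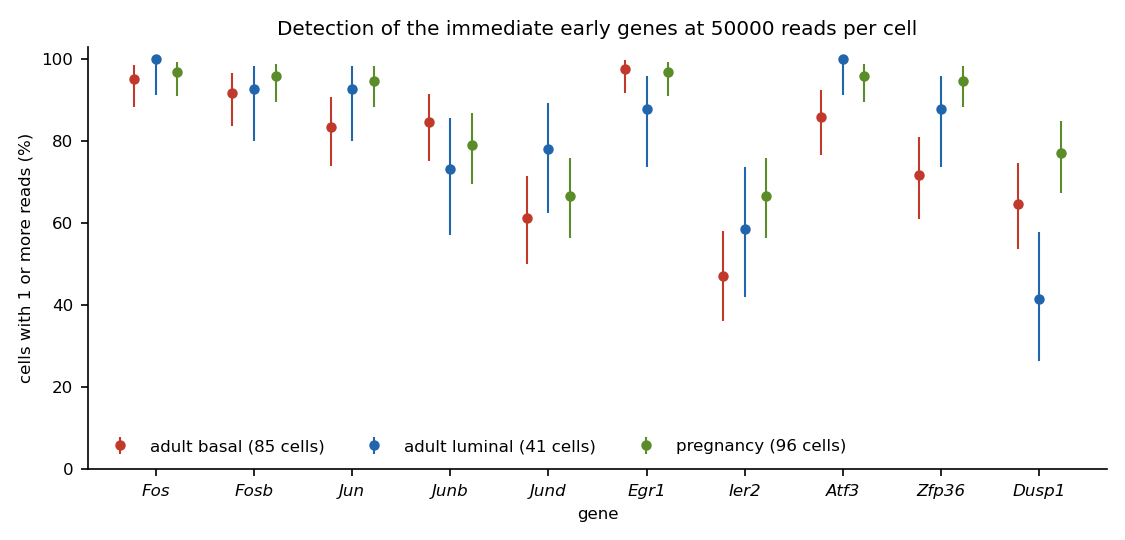
Share of cells (percent, vertical axis) with 1 or more reads of each immediate early gene (horizontal axis) after every cell was thinned to 50000 reads, with exact 95% intervals as bars, in adult basal (red), adult luminal (blue) and pregnancy cells (green). Fos, Fosb and Egr1 lie at 87.8% or more in each group, whereas Dusp1 ranges from 41.5% in adult luminal to 77.1% in pregnancy cells.

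Few cells stood outside this pattern. After thinning, adult basal cell 76 detected 1 of the 10 genes. The count was made in the thinned cell, so its full depth of 296586 reads had no part in it. Adult basal cells 26, 61, 94 and 102 detected 4 after thinning. Adult luminal cell 15, which was below the study's gene minimum, detected 4 as well, yet the genes it held summed to 16689 CPM, a cell's counts scaled to a fixed total. Pregnancy cells 97, 105 and 108 had the fewest in their group, 5 each, with summed levels of 2408, 1196 and 449.5 CPM. The last of these was the lowest of all pregnancy cells.

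Together the 10 genes took 0.907% of all reads in adult basal cells (9074 CPM, 9042 to 9105), 0.617% in adult luminal cells (6170 CPM, 6139 to 6201) and 0.576% in pregnancy cells (5761 CPM, 5730 to 5792). The spread between cells was far wider than these counting intervals. In adult basal cells the lowest, median and highest summed levels were 1016, 7285 and 41597 CPM. In adult luminal cells they were 1123, 6084 and 18412 CPM, and in pregnancy cells 449.5, 4823 and 38132 CPM. The groups overlapped over most of their range, with the upper quartile 3.59 times the lower in adult basal, 3.38 times in adult luminal and 3.59 times in pregnancy cells. No single cell carried a group, as the cell with most reads of these genes held 5.68%, 5.60% and 3.49% of them. The order of adult luminal and pregnancy cells depended on the scale. Milk genes took 1.25% and 22.8% of their reads, and with these genes removed from the totals pregnancy cells lay above adult luminal cells. They also did so as a mean of the cells' CPM, at 7615 against 6526, with adult basal cells at 10218.

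A few members made up most of that level. Fos and Egr1 took 65.6% of the reads of the 10 genes in adult basal and 68.8% in pregnancy cells but 46.5% in adult luminal cells, where Fos (30.8%) was followed by Atf3 (22.1%) and then Egr1 (15.7%), while Junb, Jund and Ier2 together took 1.99%, 3.49% and 2.61%. Compared per length, as CPM per kilobase of the counted exons, Fos led in all 3 groups with 1541, 907 and 833, which ranked it 24th, 52nd and 38th among all kept genes. Egr1 followed in adult basal (887, rank 48) and pregnancy cells (724, rank 46), and Atf3 in adult luminal cells (691, rank 76). Jund, the Jun family member known for steady rather than induced transcription, was last in each group with 10.9, 15.7 and 10.4 (ranks 4938, 4462 and 4518). Fos stood 141-fold above Jund per length in adult basal, 57.9-fold in adult luminal and 80.1-fold in pregnancy cells. Between them the order in adult basal cells was Egr1, Atf3, Fosb, Dusp1, Zfp36, Jun, Junb and Ier2. All 9 pairs of neighbours in the order had overlapping quartile ranges over cells in each of the 3 groups, so the order of neighbours holds for the sums and not cell by cell.

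**Figure D2:**
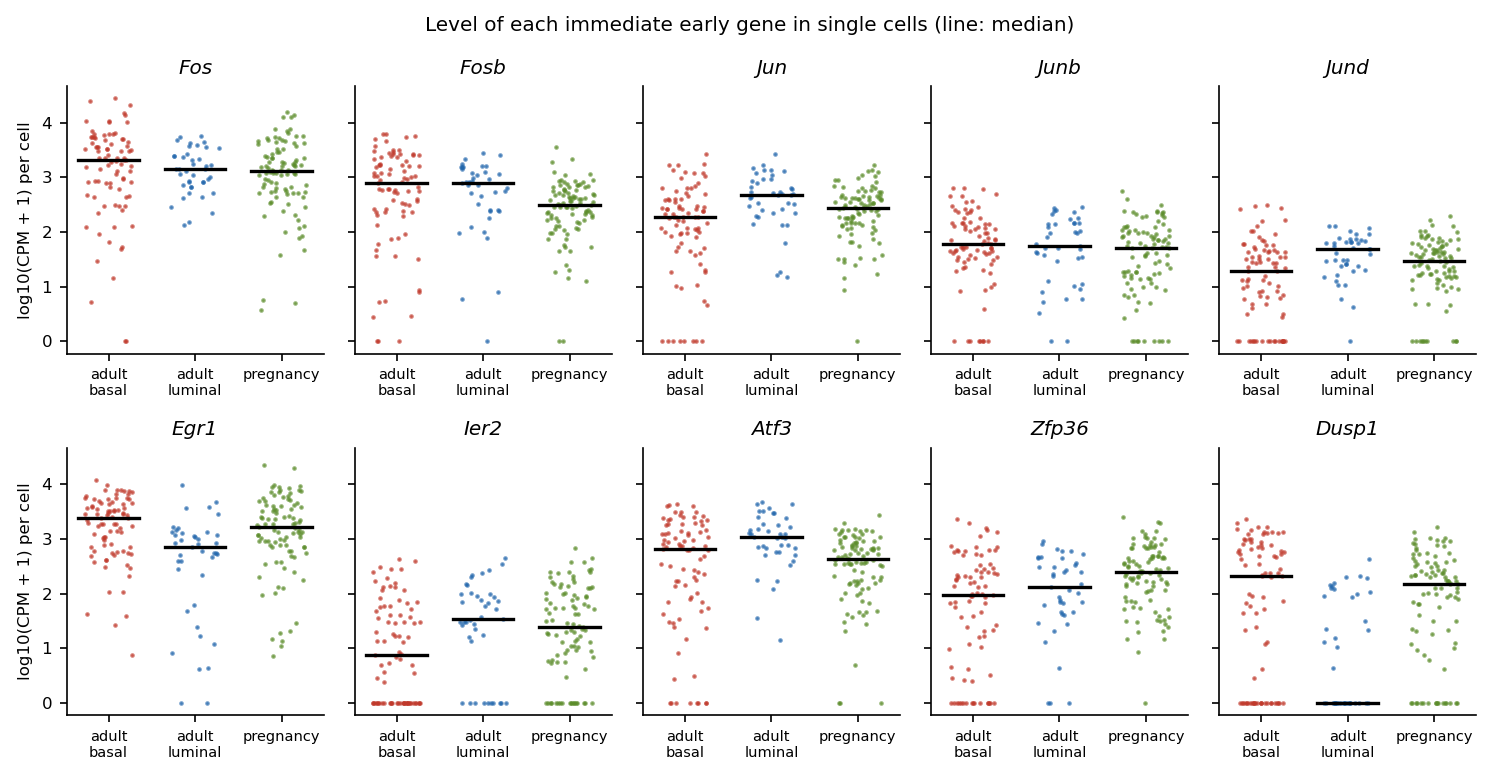
Level of each immediate early gene in single cells, as log10(CPM + 1), with 1 point per cell and the median as a line, in adult basal (red), adult luminal (blue) and pregnancy cells (green). Points at 0 are cells without a read, and the adult luminal median of Dusp1 lies there.

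Between the adult lineages, Dusp1 and Egr1 were higher in basal cells and no member was 2-fold or more lower. Dusp1 (chromosome 17, 26505591 to 26508472, Entrez gene 19252) ranged from 0 over a median of 212 to 2366 CPM in adult basal cells and from 0 over 0 to 437 CPM in adult luminal cells. The upper quartile of basal cells, 760 CPM, lay above the highest luminal cell, while both groups held cells at 0. Its summed level was 495 CPM (487 to 502) in basal and 53.4 CPM (50.6 to 56.4) in luminal cells, 9.26-fold higher in basal cells, a log2 ratio of 3.21 (3.13 to 3.29). Adult luminal cell 43 held 22.0% of the luminal reads, and without it the ratio was 3.53. Fibroblast markers summed to 48.3 CPM in adult basal and 1752 CPM in adult luminal cells, and without the cells that carried 3 or more markers of a non-epithelial list the ratio was 3.98.

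Egr1 (chromosome 18, 34861207 to 34864956, Entrez gene 13653) ranged from 6.47 over 2410 to 11950.5 CPM in adult basal cells and from 0 over 712 to 9892 CPM in adult luminal cells, so single cells overlapped almost throughout. Its sums were 2726 CPM (2709 to 2743) and 971 CPM (958 to 983), a log2 ratio of 1.49 (1.47 to 1.51). The highest luminal level came from adult luminal cell 15, the cell under the study's gene minimum, and without the luminal cell with most Egr1 reads the ratio was 1.62. Fos (chromosome 12, 85473890 to 85477274, Entrez gene 14281) ranged from 0 over 2072 to 28264 CPM in basal and from 132 over 1398 to 5728 CPM in luminal cells. Basal cells thus held both the lowest and the highest Fos levels. Its log2 ratio was 0.76 (0.75 to 0.78), under 2-fold.

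Jun, the partner of Fos in AP-1, went the other way, at 307 CPM in adult basal and 596 CPM in adult luminal cells (log2 ratio -0.95, -0.99 to -0.92), with medians over cells of 188 and 484 CPM. Atf3 (-0.57), Ier2 (-0.76), Jund (-0.52) and Zfp36 (-0.14) were also on the luminal side, while Fosb (0.27) and Junb (0.21) were on the basal side. In all, 2 of 10 were 2-fold or more higher in basal cells against 23.9% of all 15010 genes compared, and 0 of 10 were lower against 36.1%. The median of the 10 was 0.03 and that of all genes -0.35. Scaling by trimmed means (TMM) moved the median of all genes to -0.06, put Fos past 2-fold at 1.06 and turned Zfp36 to 0.16.

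**Figure D3:**
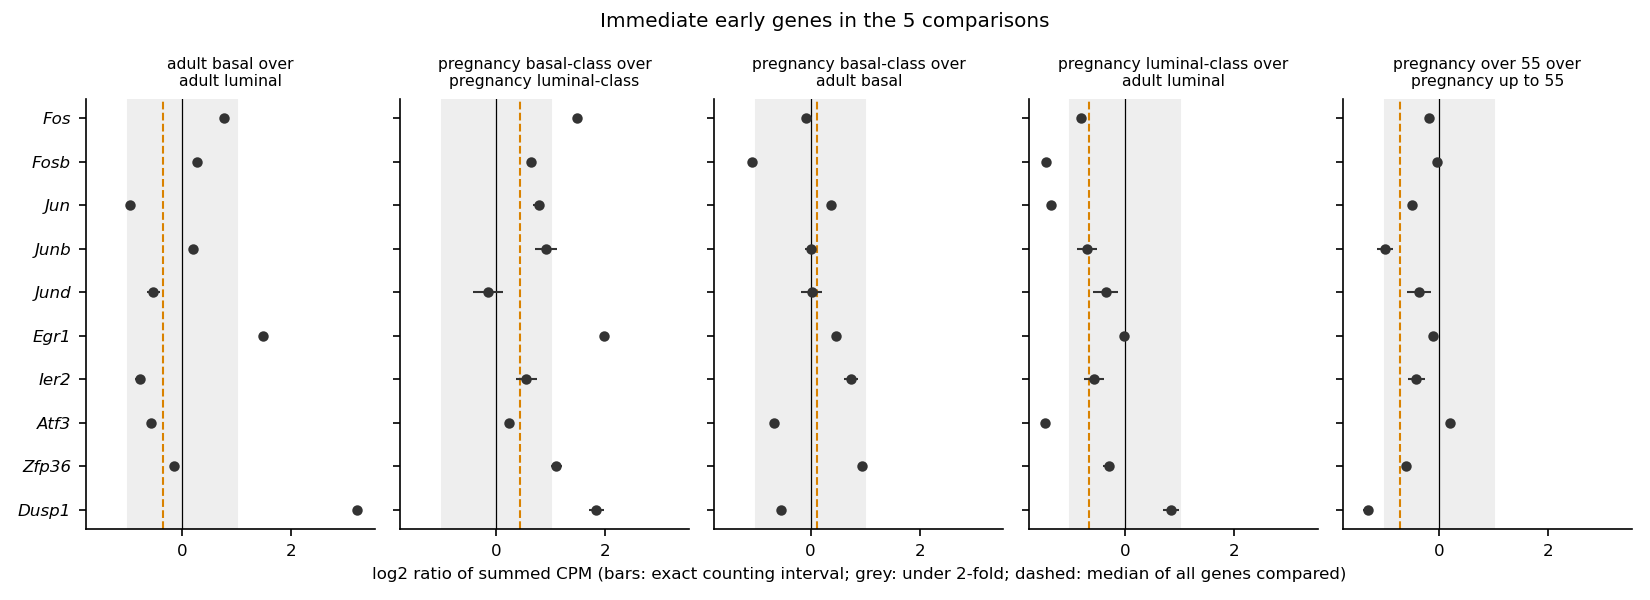
Log2 ratio of summed CPM (horizontal axis) of each immediate early gene in the 5 comparisons, with exact counting intervals as bars, the range under 2-fold in grey and the median of all genes compared as a dashed line. Dusp1 reaches 3.21 for adult basal over adult luminal cells, and Atf3, Fosb and Jun lie below -1 for pregnancy luminal-class over adult luminal cells.

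Basal-class and luminal-class cells of pregnancy differed by 2-fold or more in Egr1, Fos, Dusp1 and Zfp36. Egr1 ranged from 92.7 over 3369 to 22259.8 CPM in the 48 basal-class cells and from 9.89 over 491 to 5095 CPM in the 21 luminal-class cells. Its log2 ratio was 1.97 (1.93 to 2.02), or 3.93-fold. Fos ranged from 84.8 over 2312 to 15839 CPM and from 2.71 over 541 to 5382 CPM (1.47, 1.43 to 1.51). Dusp1 ranged from 0 over 243 to 1315 CPM and from 0 over 20.1 to 736 CPM (1.83, 1.69 to 1.97), and pregnancy cell 68 held 36.1% of its luminal-class reads. The lower quartile of Egr1 in basal-class cells, 1710 CPM, lay above the upper quartile in luminal-class cells, 1487 CPM, although the full ranges overlapped. Without cell 68, which also held most luminal-class reads of Fos and Egr1, the ratios were 2.32 (Egr1), 1.78 (Fos) and 2.40 (Dusp1).

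Zfp36 was the other gene past 2-fold, at 430 CPM in basal-class and 201 CPM in luminal-class cells (1.10, 1.00 to 1.20). Junb (0.91), Jun (0.77), Fosb (0.64), Ier2 (0.55) and Atf3 (0.23) were higher in the basal class by less than 2-fold, and Jund was at -0.16 (-0.43 to 0.12). Thus 4 of 10 were 2-fold or more higher against 36.8% of 14851 genes compared, which is close to the background, and 0 of 10 were lower against 19.8%. Milk genes took 10.2% of the reads of basal-class and 29.5% of those of luminal-class cells, and with these genes removed from the totals Egr1 was at 1.63, Dusp1 at 1.48, Fos at 1.12 and Zfp36 at 0.75. Fibroblast markers also differed, as 6 of 6 had reads in basal-class cells (2836 CPM summed, from 0 to 39792 per cell) and 3 of 6 in luminal-class cells (5.56 CPM, from 0 to 110), with Col1a1, Lum and Pdgfra at 0. Without the 15 basal-class and 2 luminal-class cells that carried 3 or more markers from outside the epithelium, Egr1 was at 2.36, Fos at 1.89 and Dusp1 at 1.87, while Zfp36 was at 0.87 and Junb at 1.13, so that 4 genes were again past 2-fold.

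**Figure D4:**
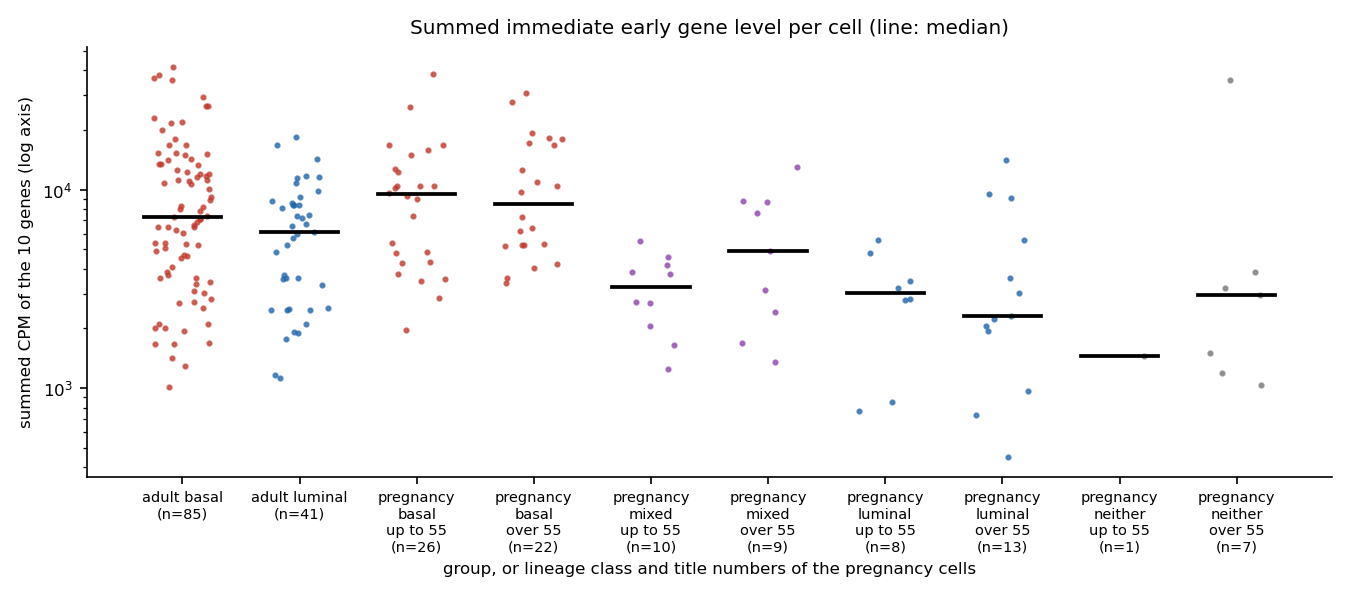
Summed CPM of the 10 immediate early genes per cell (log axis, median as a line) in the adult groups and in pregnancy cells by lineage class and title number. The basal-class medians (9472 and 8474 CPM) lie above those of luminal-class cells (3001 and 2322 CPM) in both ranges of title numbers, with overlap between single cells.

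In summed CPM of these genes pregnancy basal-class cells were close to adult basal cells (9231 CPM, 9168 to 9294, against 9074). Milk genes took 10.2% and 0.00068% of the reads of these 2 basal sets, and their median cells were at 9472 and 7285 CPM. On the CPM scale pregnancy luminal-class cells were lower than adult luminal cells (3523 CPM, 3472 to 3574, against 6170). Milk genes took 29.5% and 1.25% of the reads of these 2 luminal sets. The median log2 ratio of the 10 genes between them, -0.64, was close to that of all genes, -0.66. Both comparisons share their adult groups with that of the adult sorts and their pregnancy cells with that of the pregnancy classes. In the basal comparison Fosb was the gene past 2-fold. It ranged from 0 over 776 to 6203 CPM in adult basal and from 0 over 411 to 3599 CPM in pregnancy basal-class cells, a log2 ratio of -1.07 (-1.12 to -1.03). Egr1 was at 0.47 and Fos at -0.09. Zfp36 was at 0.94 (0.88 to 0.99), with the median cell at 91.3 CPM in adult basal and 434 CPM in pregnancy basal-class cells. Ier2 was at 0.74, with medians of 6.56 and 52.5 CPM. Dusp1 was at -0.54, and at -1.18 without the cells that carried 3 or more markers of a non-epithelial list. With milk genes removed from the totals Fosb was at -0.92 and Zfp36 at 1.09, so that Zfp36 was then the gene past 2-fold. Fosb was also under 2-fold in numbers up to 55 of the titles (-0.98), with classes at the 5th percentile (-0.77) and with thresholds from all adult cells used (-0.77), and in each of these Zfp36 was past it (1.13, 1.33 and 1.30). Against the background, 0 of 10 were higher (31.5% of 15037 genes compared) and 1 of 10 was lower (20.6%).

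In the luminal comparison 3 genes were 2-fold or more lower in pregnancy. Atf3 ranged from 13.0 over 1104 to 4729 CPM in adult luminal and from 19.5 over 435 to 1219 CPM in pregnancy luminal-class cells (-1.47, -1.53 to -1.41). The adult lower quartile, 567 CPM, lay under the pregnancy upper quartile, 625 CPM, so the groups overlapped. Fosb fell from 822 to 303 CPM (-1.44, -1.52 to -1.37) and Jun from 596 to 234 CPM (-1.35, -1.43 to -1.26). Egr1 was at -0.02 (-0.06 to 0.03), at -0.36 without pregnancy cell 68, at -0.53 in title numbers up to 55 and at 0.17 over 55. Dusp1 was on the pregnancy side at 0.84 (0.69 to 0.99), but only 0.26 without cell 68. Against the background, 3 of 10 were lower where 41.6% of 14586 genes compared were, and 0 of 10 were higher where 19.8% were. These calls depended on the scale. The median of the 10 genes was -0.64 and that of all genes -0.66. With milk genes removed from the totals these medians were -0.15 and -0.18, and Atf3, Fosb and Jun were at -0.98, -0.96 and -0.86. Under TMM scaling the medians were 0.04 and 0.02, and 5 of the 10 genes were above 0. Atf3, Fosb and Jun were then at -0.79, -0.76 and -0.67 and Dusp1 at 1.52, so that the only gene past 2-fold was higher in pregnancy.

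Pregnancy cells were also compared by the number in their titles, up to 55 (45 cells) and over 55 (51 cells), a division drawn in an earlier analysis of these data that no label names. Summed levels were 6279 and 5442 CPM. Dusp1 was lower in the higher numbers, at 136 CPM (130 to 142) against 338 CPM (326 to 351), a log2 ratio of -1.31, and was detected in 64.7% against 91.1% of cells. Junb, at 46.2 against 92.4 CPM, was just under 2-fold, and the other 8 genes lay between -0.62 (Zfp36) and 0.20 (Atf3). Thus 1 of 10 was lower against 41.6% of 15114 genes compared and 0 of 10 were higher against 10.1%. The medians were -0.40 for the 10 genes and -0.72 for all genes. Milk genes took 8.89% of reads in the lower and 31.4% in the higher numbers, and 19 against 5 cells carried 3 or more markers of a non-epithelial list. With milk genes removed Dusp1 was at -0.91 and the other 9 lay between -0.59 (Junb) and 0.61 (Atf3). Under TMM scaling Dusp1 was at -0.64 and 8 of the 10 were above 0. Without the cells of the non-epithelial lists Dusp1 was at -0.93 and Junb at -1.29.

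The basal against luminal contrast held the same sign for Fos and Egr1 on both sides of the division. In numbers up to 55 the ratios of basal-class (26 cells) over luminal-class cells (8) were 2.53 for Egr1, 1.44 for Fos and 3.03 for Dusp1, and 6 of 10 genes were 2-fold or more higher where 32.6% of genes were. In numbers over 55 (22 and 13 cells) they were 1.75, 1.51 and 0.68, and 2 of 10 were higher where 38.2% were. Dusp1 thus stood past 2-fold on 1 side only, and without pregnancy cell 68 its ratio over 55 was 1.45. Between adult basal and pregnancy basal-class cells Dusp1 was at 0.03 in numbers up to 55 and at -1.48 over 55. Cells with 3 or more markers of a non-epithelial list were 14 of the 26 basal-class and 1 of the 8 luminal-class cells up to 55. Over 55 they were 1 of 22 and 1 of 13. Their part in these ratios and the differences between the sides were not tested.

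Within the adult luminal sort, cells with more progenitor than mature markers (10 cells) were set beside cells with more mature markers (28). Egr1 was 2.15-fold (1.11, 1.07 to 1.14) and Dusp1 2.36-fold higher (1.24) in the progenitor-leaning cells, where the background was 25.7%. Adult luminal cell 15, under the study's gene minimum, held 28.5% of the progenitor-leaning reads of Egr1, and without it the ratio was 0.70. Without cell 27, which held 28.4% of those of Dusp1, that ratio was 0.98. Fibroblast markers moved with this division, as 3 or more were found in 3 of the 10 progenitor-leaning and 2 of the 28 mature-leaning cells, and their part was not tested. The other 8 genes were under 2-fold, from -0.51 (Fosb) to 0.47 (Junb).

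Levels of most of the 10 genes were positively related from cell to cell, with Dusp1 as the main exception in adult cells. Across the 45 pairs of genes the median Spearman rho of levels, in cells thinned to 50000 reads, was 0.28 in adult basal (85 cells), 0.32 in adult luminal (41), 0.20 in pregnancy cells up to 55 (45) and 0.32 in those over 55 (51). Positive values were found for 35, 39, 37 and 45 of the 45 pairs. Part of these values belongs to genes found in nearly every cell. Among the 28, 28, 15 and 15 pairs in which both genes were detected in 20% to 95% of cells, the medians were 0.17, 0.29, 0.14 and 0.19. Of these pairs 20, 24, 14 and 15 were positive, against 70.0%, 61.4%, 57.1% and 59.5% of all pairs of genes in that range of detection. In adult basal cells the share of positive pairs was thus close to that of all pairs. Over all pairs in that range the medians were 0.059, 0.047, 0.029 and 0.037, and 16.8%, 6.65%, 24.0% and 16.5% of all such pairs lay above the median of the members. The pairs share their cells, libraries and depth. With the number of genes detected per cell held constant, the medians of the 45 pairs were 0.29, 0.31, 0.20 and 0.29.

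Fos and Egr1, which respond to the same kinase cascade, had the highest median correlation, with a value over the 4 sets of 0.68 (0.42 to 0.82). Fos and Jun followed with 0.58 (0.40 to 0.68), then Egr1 and Zfp36 with 0.54 (0.34 to 0.60), Fos and Fosb with 0.50 (0.41 to 0.55) and Fosb and Atf3 with 0.47 (0.43 to 0.59). The median rho of Dusp1 with the other 9 genes was -0.05 in adult basal, -0.08 in adult luminal, 0.17 in lower-numbered and 0.34 in higher-numbered pregnancy cells. Its rho with Fos was between -0.08 and 0.62 and with Egr1 between -0.12 and 0.66 over the 4 sets, with medians of 0.09 and 0.12, and with Fosb it went down to -0.46. The highest of these belonged to pregnancy cells over 55, apart from that with Fosb. Since the pregnancy sets pool lineage classes, their values are not on like terms with those of the adult sorts. For Ier2 the medians with the other 9 were 0.02, 0.26, 0.15 and 0.14 in the 4 sets, with the highest value, 0.50 with Jund, in adult luminal cells. For Jund they were 0.30, 0.34, 0.02 and 0.06. Detection alone could show little of this, since a gene found in most cells leaves little room above independence. In pairs where both genes were detected in 20% to 95% of cells, cells with both stood to independence by a median factor of 1.05, 1.02, 0.995 and 1.01 in the 4 sets. For all gene pairs in that range it was 1.10, 1.07, 1.05 and 1.05. These pairs were not matched to the members in detection rate, so the factors cannot show whether joint detection was lacking.

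**Figure D5:**
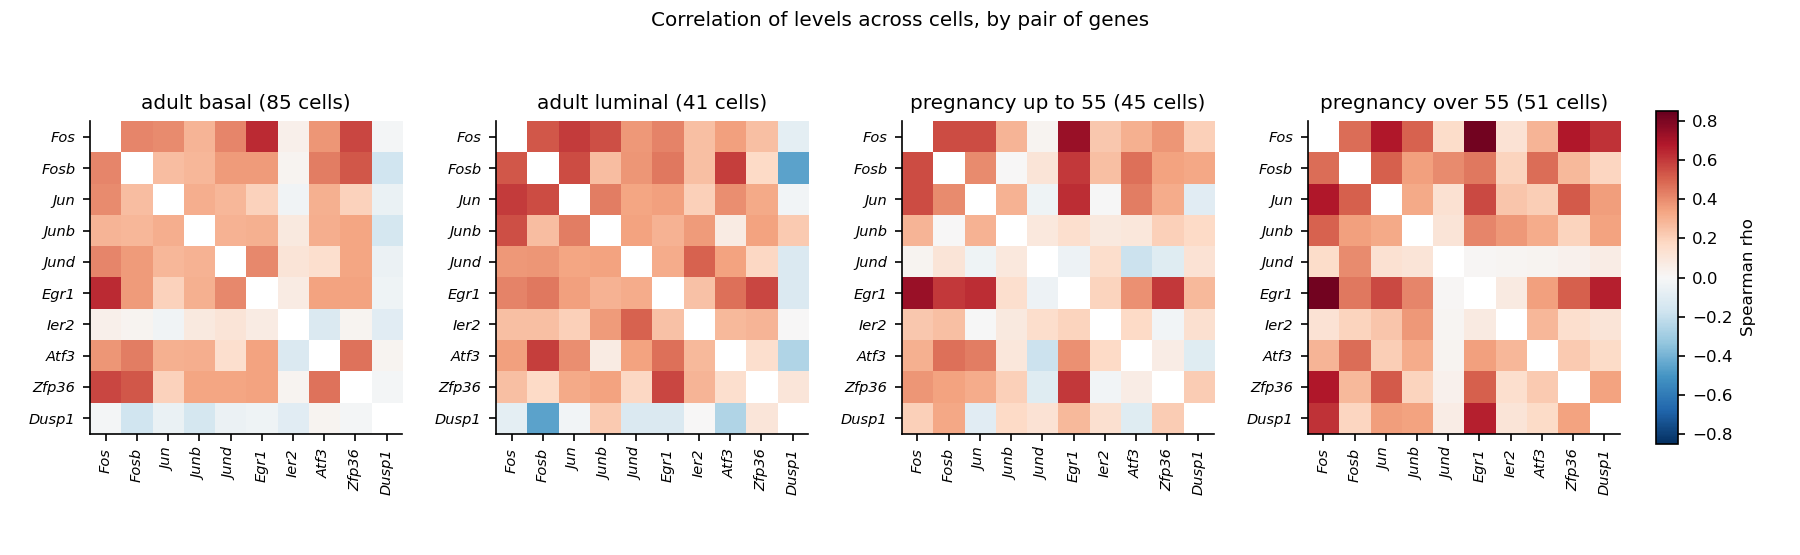
Spearman rho of the levels of each pair of immediate early genes across cells (red positive, blue negative, white near 0) in adult basal, adult luminal and pregnancy cells with title numbers up to 55 and over 55. Fos and Egr1 range from 0.42 to 0.82 over the 4 sets, and Dusp1 reaches its highest value, 0.66 with Egr1, in pregnancy cells over 55. The pregnancy sets pool lineage classes, and the adult sets are 1 sort each.

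The genes most like the group were those whose level followed the number of the 10 detected in a cell, ranked by their lowest rho over the 4 sets among 3165 eligible genes. They were Glud1 (0.26), Ccdc90b (0.25), Xiap (0.24), Nr4a1 (0.23), Gem (0.23), Ypel5 (0.23), Rps6kb1 (0.22) and Crip1 (0.22). Nr4a1, an orphan nuclear receptor that is itself an immediate early gene, had rho of 0.48, 0.54, 0.23 and 0.47 in adult basal, adult luminal, lower-numbered and higher-numbered pregnancy cells. The values of the others were weak, and in sparse counts they order the genes only. The ranking was not adjusted for the number of all genes detected in a cell. That number was itself related to the number of the 10 detected, with rho of 0.54, 0.25, 0.24 and 0.36 in the 4 sets.

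Other early response genes gave the context. Of 23 further transcription factors of this class, 11 were 2-fold or more higher in adult basal than adult luminal cells and 4 lower (median 0.95, against -0.35 for all genes and backgrounds of 23.9% and 36.1%). Egr2, a relative of Egr1, was at 309 and 14.4 CPM (4.43), Nr4a2 at 123 and 18.2 CPM (2.76) and Cebpd at 99.9 and 18.1 CPM (2.46). Of 31 early response genes that are not transcription factors 8 were higher and 5 lower (median 0.47). Arc was at 355 and 16.2 CPM (4.46) and Zfp36l1, a relative of Zfp36, at 5696 and 664 CPM (3.10).

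In pregnancy, basal-class over luminal-class cells, 10 of 22 such factors were higher and 1 was lower (median 0.81, all genes 0.44), where 36.8% of all genes were higher and 19.8% lower, with Egr2 at 222 and 18.6 CPM (3.58) and Irf1 at 487 and 132 CPM (1.89). Of the 31 other genes 12 were higher, a share close to that of all genes, and 0 lower (median 0.83), with Ccn2 at 391 and 16.3 CPM (4.58) and Arc at 193 and 21.7 CPM (3.15). From adult to pregnancy basal-class cells 1 of the 23 factors was higher and 1 lower, against 31.5% and 20.6% of all genes. Of the 31 other genes 7 were higher and 3 lower, neither share above that of all genes. Among these 31 the chemokine gene Cxcl1 was at 142 in adult basal and 1043 CPM in pregnancy basal-class cells (2.88). Of the 48 pregnancy basal-class cells 15 carried 3 or more markers of a non-epithelial list, against 1 of 85 adult basal cells. Among the 21 luminal-class cells 2 did. Their part in the values of these wider lists was not tested. From adult to pregnancy luminal-class cells 8 of the 23 factors were higher and 5 lower, against 19.8% and 41.6% of all genes. Of the 31 other genes 5 were higher and 8 lower, again neither share above that of all genes. Among them Cxcl2 was at 23.1 and 428 CPM (4.21), and Rgs2, a brake on G-protein signalling, at 272 and 13.8 CPM (-4.30).

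Heat shock genes, which respond to protein damage, are often followed as a mark of stress. Of 12, 4 were 2-fold or more higher in adult basal than adult luminal cells and 0 lower (median 0.63, against 23.9% and 36.1% of all genes), with Hspb1 at 89.2 and 12.4 CPM (2.84) and Dnaja1 at 625 and 259 CPM (1.27). From adult basal to pregnancy basal-class cells 0 were higher and 5 lower (median -0.61, against 31.5% and 20.6% of all genes), with Dnaja1 at 625 and 273 CPM (-1.19). Between the pregnancy classes 0 were past 2-fold in either direction, where 36.8% and 19.8% of all genes were, and the same shares apply to the ERK genes in these classes. Of 11 feedback genes and targets of the ERK kinases, 4 were higher and 4 lower between the adult sorts, and 6 were higher and 2 lower in pregnancy basal-class over luminal-class cells. Dusp6, a phosphatase of ERK, was at 451 and 102 CPM in those classes (2.14), and Spry2, an inhibitor of receptor signalling to ERK, at 395 and 179 CPM (1.14). Of 16 upstream kinases and factors, 3 were higher and 4 lower between the adult sorts, with Egfr at 110 CPM in adult basal and 1.45 CPM in adult luminal cells (6.24).

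The summed level of the 10 genes was set against other properties of a cell. Against the percentage of reads in milk genes its rho was -0.66 in the 45 lower-numbered and -0.61 in the 51 higher-numbered pregnancy cells, and -0.59 and -0.44 when milk reads were taken out of the total. In adult basal and adult luminal cells it was 0.10 and -0.15. The pregnancy sets pool lineage classes that differed in both measures. Up to 55, milk genes took 2.28% of basal-class and 17.0% of luminal-class reads, and the 10 genes summed to 9594 and 2915 CPM. Over 55 the milk shares were 17.9% and 35.3% and the sums 8877 and 3803 CPM. The rho values were not adjusted for class. With the mitochondrial share of reads, which often rises in damaged cells, rho was 0.16, 0.11, -0.03 and 0.26 in adult basal, adult luminal, lower-numbered and higher-numbered pregnancy cells. With reads per cell it was -0.12, -0.10, -0.31 and -0.46. With the number of all genes detected the summed level had rho of -0.06, -0.16, -0.44 and 0.18 (-0.40 and 0.20 without milk reads in pregnancy cells). The number of the 10 genes detected was related to the number of all genes detected, with rho of 0.54, 0.25, 0.24 and 0.36. In lower-numbered pregnancy cells the summed level was 5288 CPM in 23 cells with 3 or more cycling markers and 7935 CPM in the 22 others. Milk genes took 11.6% and 4.35% of their reads. The cells with cycling markers included 10 of the 26 basal-class and 4 of the 8 luminal-class cells. These sets were thus not matched in lineage class or milk share. Whether handling, signalling or cell quality had a part in these values was not tested.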

How the data were processed

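Processed data of 278 single-cell libraries were used. The authors aligned read pairs to mm10 with Subread 1.4.6 and counted them with featureCounts (names, version and build from the submitters' processing notes), and the deposited tables hold raw counts per Entrez gene. A series-wide table of these counts was left unused. Symbols came from the RefSeq table of GRCm38.p6, the build of mm10. Following the study's methods, 1904 IDs that matched no symbol (1.20% of reads) were dropped, as were mitochondrial (15 genes, 9.54%) and ribosomal protein genes (125 genes, 1.72%). Counts were summed over cells and scaled to CPM, ratios used 15312 genes with 1 CPM in 3 or more cells, and a sum of 0 entered at 3 counts. A gene was called at 2-fold or more. Detection used cells thinned without replacement to 50000 reads. A pregnancy cell was basal or luminal where it alone reached at least 18.5% of 199 basal or 25.3% of 190 luminal list genes (milk genes left out), mixed where it reached both and neither where it reached none. These are the 10th percentiles of adult cells that pass the study's minimums, so about 10% of those fall below them by construction. No doublet caller was run, and the study states that capture sites were checked by eye. The kit does not mark strand, so antisense reads cannot be told apart. The 10 genes and all lists were chosen with earlier results of these data known. Named genes were all 10 members, up to 4 genes of each wider list per comparison, taken by the largest ratio among genes with 50 CPM or more and detection in 20% of cells, and the 8 genes most like the group. Ratios, intervals and correlations were tested on simulated data, and thinning on some of the cells. The simulated counts of a group came from a shared profile without spread between cells, so they check the intervals for counting error only. Alternatives were TMM (edgeR 4.0.16, R 4.3.3), mean CPM of cells, depth, filters and class thresholds. Analyses used Python 3.11.15, numpy 2.4.6, scipy 1.17.1, pandas 2.3.3 and matplotlib 3.10.9.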

Additional observations from a re-analysis of the deposited data

Results flagged for a closer look

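Cells with fewer than 50000 reads were left out of every comparison, yet their reads held a larger share of the 10 genes than those of the cells used. The summed level was 14411 CPM (14012 to 14819) in 27 adult basal cells, 22204 CPM (20812 to 23664) in 2 adult luminal cells and 16474 CPM (16080 to 16875) in 27 pregnancy cells, where a count of 0 would have allowed 8.76, 70.3 and 7.44 CPM. Reads of these genes were found in 24, 2 and 27 of them. Median depths were 10758, 21326 and 7209 reads, and the cells cannot be classed by lineage at that depth. The cause was not tested.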

How the results depend on the processing

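No paired analysis was possible because the results come from no test and the numbers in the titles only name cells. Depth limits detection of the low genes (Ier2, Jund, Junb), and animals, stage and sort limit every comparison more than counting error does. Of the values that answer a comparison, 86 stayed within their counting interval, or a count within 1.5 times, and 43 moved, and of the single-gene ratios 171 stayed and 279 moved. No called ratio changed sign. The cause of each move was not tested. The division by title number, the thresholds from all adult cells and the limit of gene pairs to 20% to 95% detection were chosen after seeing the data. The median number of genes detected in adult basal cells was 9 without thinning and at 100000 reads, 6 when 5 or more reads were asked and 7 with milk genes removed at 25000 reads. It was 6 in adult luminal cells with 5 or more reads. In pregnancy cells it was 10 without thinning and at 100000 reads, and 6.5 with 5 or more reads. The share of cells with at least 5 genes was 77.6%, 80.5% and 86.5% in adult basal, adult luminal and pregnancy cells with 5 or more reads, and 100% in adult luminal cells without thinning, at 100000 reads or under the study's minimums. The summed level in adult basal cells was 10218 CPM as a mean of cells, 8681 CPM without the cell with most reads of these genes and 8155 CPM over all assigned reads. In adult luminal cells it was 6526, 6002 and 5432 CPM in turn, 6248 CPM with milk genes removed, 6066 CPM under the study's minimums and 6220 CPM without cells of the non-epithelial lists. In pregnancy cells it was 7615, 5589 and 4981 CPM in turn, 7463 CPM with milk genes removed, 5051 CPM without cells of the non-epithelial lists, 6279 CPM up to number 55 and 5442 CPM over it. Pregnancy basal-class over adult basal cells gave 2 genes past 2-fold instead of 1 lower gene: 1 higher and 1 lower as a mean of cells, 2 lower without cells of the non-epithelial lists, 2 higher (Ier2, Zfp36) in numbers up to 55 and 2 lower (Fosb, Dusp1) over 55. With milk genes removed, with classes at the 5th percentile and with thresholds from all adult cells used it gave 1 higher gene (Zfp36) and 0 lower. Pregnancy luminal-class over adult luminal cells gave 1 higher (Dusp1) instead of 3 lower under TMM scaling and with milk genes removed, and 5 lower with classes at the 5th percentile (26 luminal cells) or with thresholds from all adult cells used (27). The pregnancy classes gave 7 and 8 instead of 4 under those class thresholds, and 2 in numbers over 55. Numbers over 55 against up to 55 gave 0 instead of 1 under TMM scaling and with milk genes removed. TMM moved the median of all genes from -0.66 to 0.02 for the luminal comparison, from 0.44 to 0.10 for the pregnancy classes, and from -0.72 to -0.05 for the title numbers. The shares of all genes called higher and lower became 28.8% and 27.7%, 30.5% and 26.0%, and 19.4% and 26.5% in turn.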

Other observations

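Other early response genes were set beside all genes in pregnancy cells with title numbers over 55 and up to 55, a division that no label names. Of 23 further transcription factors, 0 were 2-fold or more higher and 12 lower (median -1.02), and of 31 other early response genes 0 were higher and 14 lower (median -0.83), where the median of all genes was -0.72, 10.1% of them were higher and 41.6% lower. The shares lower were thus near that of all genes for the second list, and likewise for the heat shock genes. Ccn2, a matricellular protein gene, was at 61.6 against 430 CPM, Ptgs2, the inducible prostaglandin synthase, at 10.4 against 81.5 CPM, and Myc at 135 against 360 CPM. Il6, a cytokine gene, was at 61.4 against 223 CPM. Heat shock genes were lower for 5 of 12 and higher for 0, with the chaperone gene Hsp90ab1 at 1575 against 3318 CPM. Fibroblast markers moved with this division, with 3 or more in 0 of 51 and 11 of 45 cells, as did immune markers (0 and 3 cells), and milk genes took 31.4% and 8.89% of reads. Their parts in the differences were not tested.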
